A study of Mus musculus with 6 samples.

Results

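The genes described here encode the translation factor EIF5A and the enzymes that activate it: Eif5a, its paralog Eif5a2, Dhps (deoxyhypusine synthase) and Dohh (deoxyhypusine hydroxylase). They were taken by gene name from a deposited count table of 22770 genes, and all 4 were present and passed the filter on low counts. The table covers polyadenylated RNA of round spermatids, the haploid male germ cells that later elongate into sperm. The cells were sorted by fluorescence from mouse testes on postnatal day 28, an age at which step 8 of spermatid development predominated. Of the 6 libraries, 3 carry the genotype label Eif5a SKO and 3 the label wild type. The labels do not expand "SKO", and the table's column names call the same libraries cKO. The deleted exons, any Cre driver, the strain and the number of animals behind each library were not stated in the labels or notes, so p-values measure the spread between these libraries, which may in part be technical.

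EIF5A binds ribosomes that have slowed or stalled and helps them form peptide bonds that are hard to make, such as those between prolines, and it also aids release of the finished protein. It works only when a particular lysine has been converted to hypusine, an amino acid known from no other protein. DHPS makes the first step, moving part of the polyamine spermidine onto that lysine, and DOHH then adds a hydroxyl group to complete it. EIF5A is the widely expressed form in mammals. EIF5A2 carries the same modification and in human tissues is known mainly from testis and brain.

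The stretch around the modified lysine shows how alike the paralogs are at the site that DHPS recognises. The sequences below run 5′ to 3′ over codons 40 to 60 of the coding sequence, counted from the start codon as 1, with the codon of the modified lysine, codon 50, in capitals. They were read from the GENCODE M21 transcripts (GRCm38). The Eif5al3-ps line is the matching stretch of a processed pseudogene, an intronless copy of Eif5a, and is shown because its reads can be confused with those of Eif5a.
Eif5a: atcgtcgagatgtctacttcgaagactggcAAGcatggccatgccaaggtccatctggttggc
Eif5a2: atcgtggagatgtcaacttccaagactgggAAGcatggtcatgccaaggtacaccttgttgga
Eif5al3-ps: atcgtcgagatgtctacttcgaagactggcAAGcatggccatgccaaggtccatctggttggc
Eif5a2 differed from Eif5a at 9 of these 63 bases, and the pseudogene at 0. The Eif5a codon lies at chr11:69919166-69919168 on the minus strand, the Eif5a2 codon at chr3:28782199-28782201 on the plus strand, and the pseudogene's at chr5:90132376-90132378 on the plus strand. Both stretches of the paralogs are coding sequence split over 2 exons. Over the whole coding sequence, 73.2% of 459 aligned bases were identical between Eif5a2 and Eif5a, and the longest run of identical bases shared by any of their transcripts was 14. Sequenced reads were 150 bases long, so reads of the paralogs differ at several positions. Eif5al3-ps was 97.3% identical to the Eif5a coding sequence, with a longest shared run of 117 bases.

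The libraries held 52055193 to 60970931 counts, with 21177 to 22006 genes detected. Levels are in CPM, counts divided by the library size in units of 1e+06 counts, after TMM scaling. No pair of replicates agreed within counting error: chi-square over its degrees of freedom was 14.8 to 149, highest where SKO replicate 3 was set against SKO replicates 1 and 2. The labelled cell type was checked against 10 round spermatid markers. All 10 were detected, and their levels summed to 6590 to 7390 CPM in SKO libraries and 4870 to 5360 CPM in wild-type libraries. Of the 10, 5 were called higher in SKO and 0 lower (edgeR, adjusted p under 0.05). Over all genes tested, 21.2% were called higher and 20.9% lower. Of 10 Sertoli cell markers, 6 were analysed here, and all 6 were called higher in SKO, against 21.2% of all genes. Their summed level was 58.7 to 188 CPM in SKO and 1.82 to 9.15 CPM in wild type. None of these 6 was at 0 across either group, and Sox9, Amh, Wt1 and Gata4 were not analysed here. Of 4 peritubular cell markers, 2 were analysed here and 1 was called higher. The 2 summed to 15.2 to 33.3 CPM in SKO and 3.97 to 10.1 CPM in wild type. Elongating spermatid markers, of which 5 of 7 were called higher, summed to 5970 to 6900 CPM in SKO and 4170 to 4640 CPM in wild type. Leydig cell markers, of which 3 of 6 were called higher, summed to 8.01 to 44.6 CPM in SKO and 1.26 to 21.6 CPM in wild type. Of 7 spermatogonium markers, 4 were analysed here and 2 were called lower. The 4 summed to 14.9 to 18.4 CPM in SKO and 21.2 to 24.9 CPM in wild type. Of 5 macrophage markers, 4 were analysed here and 3 tested, with 0 called higher and 1 lower. The 4 summed to 1.05 to 4.14 CPM in SKO and 3.44 to 4.23 CPM in wild type. Of 7 spermatocyte markers, 3 were called higher, namely Sycp3, Dmc1 and Syce1, and 1, Spo11, lower. Sycp3 had a mean of 143.8 CPM in SKO and 40.6 CPM in wild type, and Dmc1 1.39 and 0.469 CPM. The mean of Spo11 was 62.3 CPM in SKO and 102.9 CPM in wild type. The 7 summed to 1580 to 2020 CPM in SKO and 1230 to 1440 CPM in wild type. Syce1 made up most of that sum, at 1357, 1525 and 1205 CPM in SKO and 1010, 892.7 and 1055 CPM in wild type.

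Eif5a, the targeted gene, was nearly absent from SKO spermatids. It had 6.88, 6.27 and 5.35 CPM in the 3 SKO libraries, against 700.8, 616.2 and 661.5 CPM in the 3 wild-type libraries. Every SKO library lay far below every wild-type library, which matches the labels. The SKO level was 0.935% of the wild-type level by edgeR's estimate, with a 95% interval of 0.717% to 1.22%, a log2 fold change of -6.74 ± 0.17 (SE; edgeR adjusted p = 9.53e-08, n = 3 each). Of 19776 genes tested it had the lowest p, and 0.172% of the genes changed more in either direction. The counting covers the gene as a whole, at 69916714 to 69921958 on chromosome 11 (GRCm38), so it does not show which exons the remaining 270 to 338 counts came from. In bulk libraries, fewer cells with the message and less message per cell cannot be told apart. The remaining Eif5a level of 6.88, 6.27 and 5.35 CPM in SKO replicates 1, 2 and 3 stood beside Sertoli marker sums of 188, 108 and 58.7 CPM in the same libraries, and the part of such cells in it was not tested.

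The pseudogene row followed Eif5a. Each SKO library had 0 counts of Eif5al3-ps, a limit of 0.0556 to 0.0619 CPM per library by counting error alone, and 11, 8 and 15 counts in the wild-type libraries. In wild type that was 0.267, 0.221 and 0.363 pseudogene counts per 1000 Eif5a counts. It was below the filter on low counts and was not tested, and reads shared between the copies cannot be told apart.

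Eif5a2 did not pass the test. It had 26.4, 30.4 and 24.9 CPM in SKO libraries and 24.5, 20.2 and 27.7 CPM in wild-type libraries, and the groups overlapped. The means were 27.2 ± 2.81 CPM in SKO and 24.1 ± 3.73 CPM in wild type (SD, n = 3 each). The log2 fold change was 0.18 with a 95% interval of -0.20 to 0.55 (edgeR adjusted p = 0.426), which spans levels from 87.3% to 146.2% of wild type. Its sign turned to -0.07 under scaling by library totals and to -0.02 under a loess correction for length and GC. Under library totals the median log2 fold change over all genes tested was itself -0.228, against 0.012 with TMM. Eif5a2 lies on the plus strand of chromosome 3, at 28781276 to 28798846, with 1 annotated transcript of 5027 bases.

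The 2 paralogs together were far lower in SKO, and Eif5a2 made up most of what was there. Counts of the paralogs were added in each library and tested as 1 row in the same fit. The sum was 33.3, 36.6 and 30.3 CPM in SKO and 725.2, 636.5 and 689.2 CPM in wild type, a log2 fold change of -4.36 ± 0.15 (SE; edgeR adjusted p = 6.55e-07), or 4.89% of wild type with a 95% interval of 3.90% to 6.12%. Eif5a2 supplied 79.4%, 82.9% and 82.3% of these counts in the SKO libraries (exact Clopper-Pearson 95% intervals from 77.3% to 84.5% across the libraries), against 3.37%, 3.18% and 4.02% in wild type (intervals from 3.00% to 4.21%). The intervals cover counting error within a library only. Smart-seq2 reads carry no molecular identifiers, so PCR copies of the same molecule count as separate reads and the intervals may be too narrow even for that. The annotated exons of Eif5a2 add up to 5027 bases in 1 transcript, and those of Eif5a to 2377 bases with 13 transcripts merged. Per kilobase of these exons the share of Eif5a2 was 64.5%, 69.6% and 68.8% in SKO and 1.62%, 1.53% and 1.94% in wild type. The share per kilobase depends on that choice of length, and the full length of Eif5a was used in SKO as well, though the deleted exons are not stated. All SKO shares exceeded all wild-type shares on both scales, and an exact two-sided permutation test gave p = 0.1, the smallest that 3 against 3 libraries allow. Eif5a supplied nearly all of the summed counts in wild type and is the targeted gene. The tests of the sum and of the share therefore restate its fall and are not separate results.

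**Figure D1:**
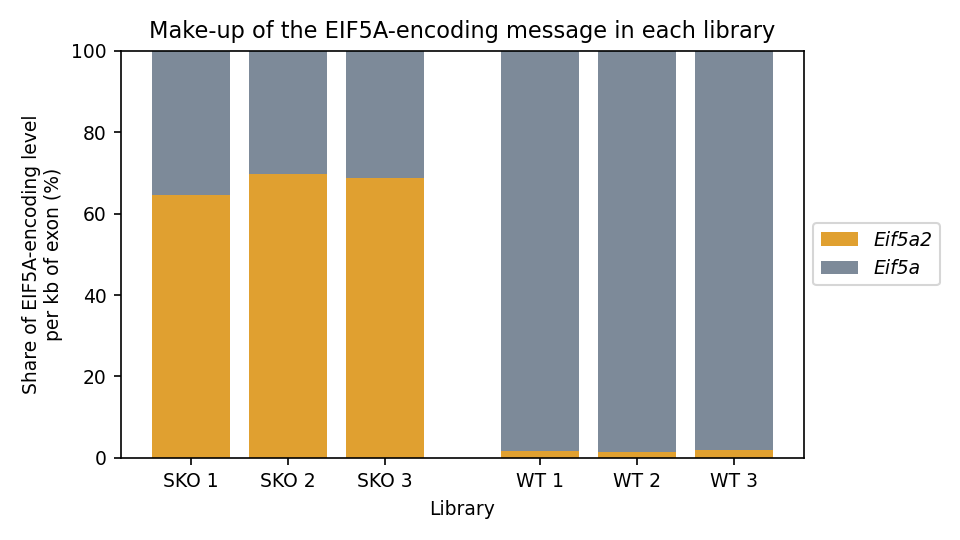
Share of each paralog in the summed level of Eif5a and Eif5a2 in each library, in CPM per kilobase of annotated exon (percent). SKO libraries are on the left and wild-type libraries on the right. The axis calls this sum EIF5A-encoding, but whether the remaining Eif5a counts of SKO libraries encode EIF5A is not known. Eif5a2 makes up 64.5% to 69.6% of each SKO bar and 1.53% to 1.94% of each wild-type bar.

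Dhps, which starts hypusine synthesis, stood at 6.57, 7.79 and 9.11 CPM in SKO libraries and 6.97, 5.25 and 6.91 CPM in wild-type libraries. The groups overlapped, since SKO replicate 1 lay below wild-type replicates 1 and 3. The log2 fold change of 0.30 had a 95% interval of -0.16 to 0.75 and did not pass (edgeR adjusted p = 0.275). Its level in SKO was thus between 89.3% and 168.5% of wild type by that interval. Dhps lies on the plus strand of chromosome 8, at 85071757 to 85075162. Its last 128 bases are exonic in both Dhps and Wdr83, a gene for a WD-repeat protein on the opposite strand. Wdr83 had 3.37, 2.54 and 2.71 CPM in SKO and 7.17, 7.12 and 5.99 CPM in wild type, a fall of 1.24 ± 0.21 on the log2 scale (SE; edgeR adjusted p = 0.00145). No label or note states the strand setting of the counting, so reads of that overlap cannot be assigned with certainty.

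Dohh, which completes hypusine, stood at 7.08, 6.16 and 9.36 CPM in SKO libraries and 6.61, 7.19 and 7.10 CPM in wild-type libraries. SKO values lay on both sides of the wild-type values, with the highest and the lowest of all 6 libraries in the SKO group. The log2 fold change was 0.11 with a 95% interval of -0.34 to 0.56 (edgeR adjusted p = 0.685). SKO replicate 3 carried the highest value of both enzyme genes. Without it Dohh's log2 fold change was -0.11 and that of Dhps 0.14. Under library totals Dohh's was -0.12, where the median over all genes tested was -0.228. Dohh lies on the plus strand of chromosome 10, at 81384428 to 81388352. Of Dohh's 2048 exonic bases, 972 are shared on the same strand with the annotated gene model Gm48551, which is not analysed here. The annotation release used for counting is not stated, so reads of that stretch cannot be assigned with certainty. The level of Dohh may be affected.

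**Figure D2:**
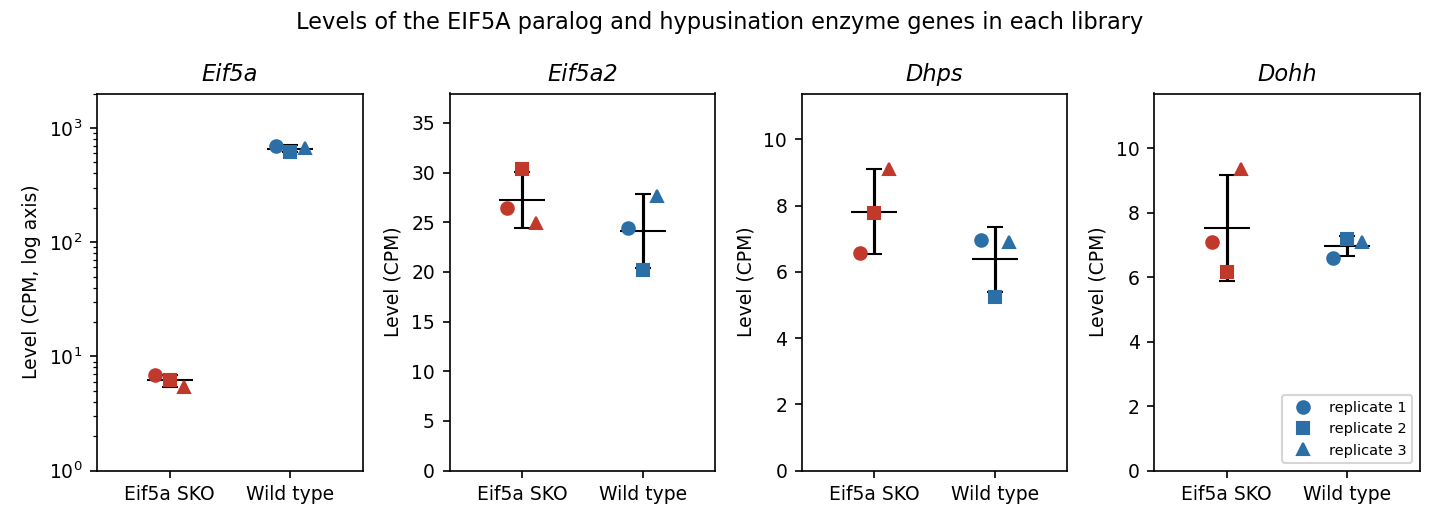
Level of Eif5a (CPM, log axis), Eif5a2, Dhps and Dohh (CPM, linear axes from 0) in each library, with SKO on the left of each panel and wild type on the right; symbols are replicates 1 to 3, bars the mean ± SD of 3 libraries. The groups are far apart for Eif5a and overlap for the other 3 genes.

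Of the 4 genes 1 was called lower and 0 higher (edgeR, adjusted p under 0.05 after Benjamini-Hochberg), and the 1 was the targeted gene. Across all 19776 genes tested, 42.0% were called in either direction, 21.2% higher and 20.9% lower. Of the 4 genes 1, again Eif5a, had SKO and wild-type values that did not overlap, where 55.6% of all genes did: 27.3% with every SKO value above and 28.3% with every SKO value below. Under scaling by library totals the calls over all genes were 2832 higher and 5666 lower, against 4185 and 4127 with TMM. Of the 3 genes that were not targeted, 0 passed by edgeR, and 0 had an unadjusted p under 0.05, with unadjusted p of 0.317 for Eif5a2, 0.181 for Dhps and 0.588 for Dohh. None of the 3 passed in any of the 15 alternative fits, DESeq2 and limma-voom included. By absolute log2 fold change, 84.7% of all genes tested changed more than Eif5a2, 74.5% more than Dhps and 90.2% more than Dohh. Autosomal coding genes with exonic lengths like those of Dhps and Dohh, 1626 to 2399 bases, had a median log2 fold change of 0.12, and those of 4000 to 5031 bases, which include Eif5a2, had a median of -0.18.

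**Figure D3:**
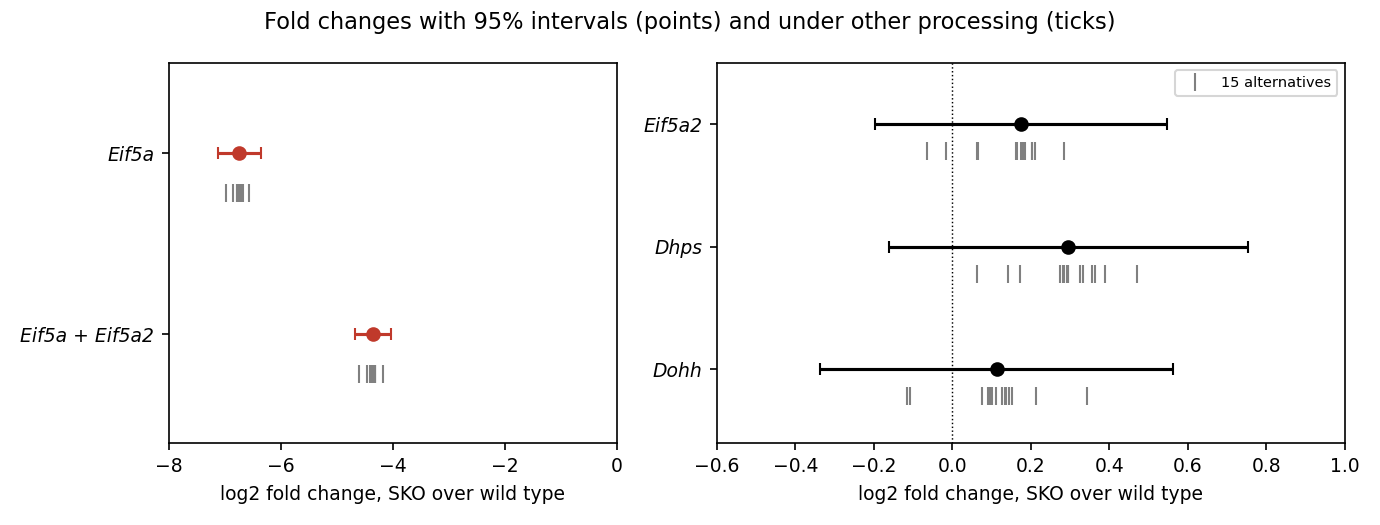
Log2 fold change, SKO over wild type, from edgeR (points, with 95% intervals as bars) for Eif5a and the sum of both paralogs (left) and for Eif5a2, Dhps and Dohh (right). Grey ticks below each point are the same fold change under 15 other processing choices: those of Eif5a stay between -6.98 and -6.57, while ticks of Eif5a2 and Dohh fall on both sides of 0.

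Levels of different genes were set side by side per kilobase of exon, with the annotated exons of all transcripts of a gene merged. Eif5a came first of the 4 genes in wild type and last in SKO, and the other 3 kept their order. The order depends on these lengths, and which transcripts were present was not tested. The full length of Eif5a was used in SKO as well, though the deleted exons are not stated, so its last place there is uncertain. The bases that Dohh shares with Gm48551 may also affect its place. In SKO, Eif5a2 was highest at 5.42 ± 0.56 CPM per kilobase, followed by Dohh at 3.68 ± 0.81, Dhps at 3.37 ± 0.55 and Eif5a at 2.59 ± 0.32 (SD, n = 3). In wild type, Eif5a led at 277.4 ± 17.8 CPM per kilobase, followed by Eif5a2 at 4.80 ± 0.74, Dohh at 3.401 ± 0.15 and Dhps at 2.74 ± 0.42. In SKO libraries the ranges of Dohh and Dhps overlapped, as did those of Dhps and Eif5a, while Eif5a2 lay above Dohh in all 3. In wild type no neighbours in the order overlapped. Wild-type Eif5a ranked 252 of 13247 tested coding genes by this measure, and the mean of 98.1% of them was lower. In SKO it ranked 6187, near the middle of the coding genes. The enzyme genes were close to the middle in both groups: 58.2% of coding genes were lower than Dohh and 56.8% lower than Dhps in SKO, and 56.4% and 53.1% in wild type. The ratio of wild-type Eif5a to wild-type Eif5a2 per kilobase was 60.6, 64.4 and 50.5 in the 3 libraries, and in SKO libraries it was 0.55, 0.437 and 0.454.

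Likeness of pattern was measured as the root mean square difference between 6 log2 CPM values, each gene centred on its own mean, over 12751 tested genes with names other than clone or model names. Nearest to Eif5a were Prr18, Zkscan2 and Aldh1l1, the last an enzyme of folate metabolism, at 0.637, 0.797 and 0.823. Prr18 was a low gene, at 0.0413, 0.0186 and 0 CPM in SKO and 2.49, 2.01 and 3.32 CPM in wild type, so the likeness is one of proportion and not of level. Among the genes nearest to Eif5a2 were Dnajb7, a co-chaperone gene, at 0.0171, and Mtx2 at 0.0463. Nearest to Dhps were Denr, which encodes a factor for ribosome recycling and reinitiation, at 0.0346, Diaph3 at 0.0436 and Zfp560 at 0.0452. Nearest to Dohh were Nsl1, Syncrip and Kmt5b, at 0.0471, 0.0481 and 0.0495. These are descriptions over 6 libraries with no test.

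Spermidine, the substrate of DHPS, comes from the polyamine pathway. Of 19 polyamine genes listed, 17 were analysed here and tested: 4 were higher, 1 was lower and 12 did not pass. The share called was 29.4%, below the 42.0% over all genes tested. The median log2 fold change was 0.23, against 0.01 over all genes tested. Odc1, the ornithine decarboxylase that opens the pathway, had 617.6, 616.6 and 562.9 CPM in SKO and 481.6, 568.4 and 477.8 CPM in wild type, overlapped between groups and did not pass (edgeR adjusted p = 0.158). Srm, spermidine synthase, rose to 13.9, 12.4 and 10.4 CPM in SKO, against 5.55, 5.68 and 7.87 CPM in wild type. Oaz3, the antizyme gene of spermatids, rose by 0.64 ± 0.12 on the log2 scale, and Azin1, an inhibitor of antizymes, by 0.55 ± 0.15 (SE; edgeR adjusted p = 0.00236 and 0.0151). The call of Azin1 ended under library totals (edgeR adjusted p = 0.142), under the length and GC correction and when replicate 1 or 3 of wild type was left out. Sat2, of the spermidine/spermine acetyltransferase family, had 1.18, 1.04 and 1.03 CPM in SKO and 0.375, 0.119 and 0.353 CPM in wild type. Paox, which oxidises acetylated polyamines, was the 1 gene that fell, at 0.103, 0.186 and 0.673 CPM in SKO and 1.81, 1.84 and 1.78 CPM in wild type. Sat2 and Paox are low genes, and a filter of 5 CPM in 3 libraries removed both.

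Diphthamide, a modified histidine of elongation factor eEF2, is another modification made for a single translation factor, and its genes were set beside those of hypusine. Of 7 diphthamide genes 3 were higher, 0 lower and 4 did not pass by edgeR, with a median log2 fold change of 0.25, against 0.01 over all genes. The share called, 42.9%, was close to the 42.0% over all genes tested. Dph3, which supplies electrons to the first step, rose to 139.9, 152.1 and 187.2 CPM in SKO, against 82.6, 75.2 and 79.8 CPM in wild type, and no values overlapped. Dph6, which adds the final amide, rose to 24.99, 34.0 and 40.1 CPM in SKO, against 18.3, 16.5 and 18.0 CPM in wild type. Dph5, the methyltransferase of the pathway, rose by 0.75 ± 0.22 (SE; edgeR adjusted p = 0.0206), a call that ended under library totals (edgeR adjusted p = 0.0758) and when SKO replicate 2 or any 1 wild-type library was left out. Dph1, of the first step, stood at 1.57 ± 0.76 CPM in SKO and 3.10 ± 0.52 CPM in wild type (SD, n = 3 each) and did not pass (edgeR adjusted p = 0.0502, unadjusted p = 0.0211), while DESeq2 and limma-voom each called 1 diphthamide gene lower. Its target gene Eef2 had 227.6, 167.6 and 268.7 CPM in SKO and 282.4, 376.0 and 252.3 CPM in wild type and did not pass (edgeR adjusted p = 0.0967).

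Of 15 genes listed for elongation and termination, among them the exportin gene Xpo4, whose protein carries EIF5A out of the nucleus, 14 were analysed here: 4 were higher, 2 lower and 8 did not pass, with a median log2 fold change of 0.10, against 0.01 over all genes. Here too the share called, 42.9%, was close to the 42.0% over all genes tested. The list is wider than its name: Eif5b acts in initiation, and Eef1e1 was listed by its name and does not encode an elongation factor. Both are part of the counts above. The termination GTPase genes Gspt1 and Gspt2 both rose. Gspt1 had 28.0, 28.3 and 49.6 CPM in SKO and 15.1, 17.4 and 15.1 CPM in wild type. Gspt2 had 21.4, 21.5 and 19.3 CPM in SKO and 6.69, 5.64 and 6.33 CPM in wild type. Eif5b, for the factor that joins ribosomal subunits, rose by 0.43 ± 0.12, and Eef1e1 by 1.23 ± 0.38 (SE; edgeR adjusted p = 0.0174 and 0.0256), with overlapping groups for Eef1e1. Eefsec, the elongation factor for selenocysteine, fell to 41.0, 36.6 and 34.2 CPM in SKO, against 56.1, 66.4 and 56.2 CPM in wild type. Eef1g, a subunit of the factor that reloads eEF1A, fell by 0.36 ± 0.12 (SE; edgeR adjusted p = 0.0328). Xpo4 had 43.8, 45.2 and 28.7 CPM in SKO and 30.6, 44.9 and 30.6 CPM in wild type and did not pass (edgeR adjusted p = 0.616). The call of Eif5b ended under library totals, under the replicate block and without 4 of the 6 libraries in turn, and that of Eef1g under 7 of 15 alternatives. That of Eef1e1 ended under 5 of 14, namely library totals and the omission of SKO replicate 2 or 3 or of replicate 1 or 2 of wild type. The number called lower was 5 without SKO replicate 3 and 1 without SKO replicate 2 or any 1 wild-type library, and the number called higher was 2 when SKO replicate 2 was left out, and likewise for replicates 1 and 2 of wild type, each alone.

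**Figure D4:**
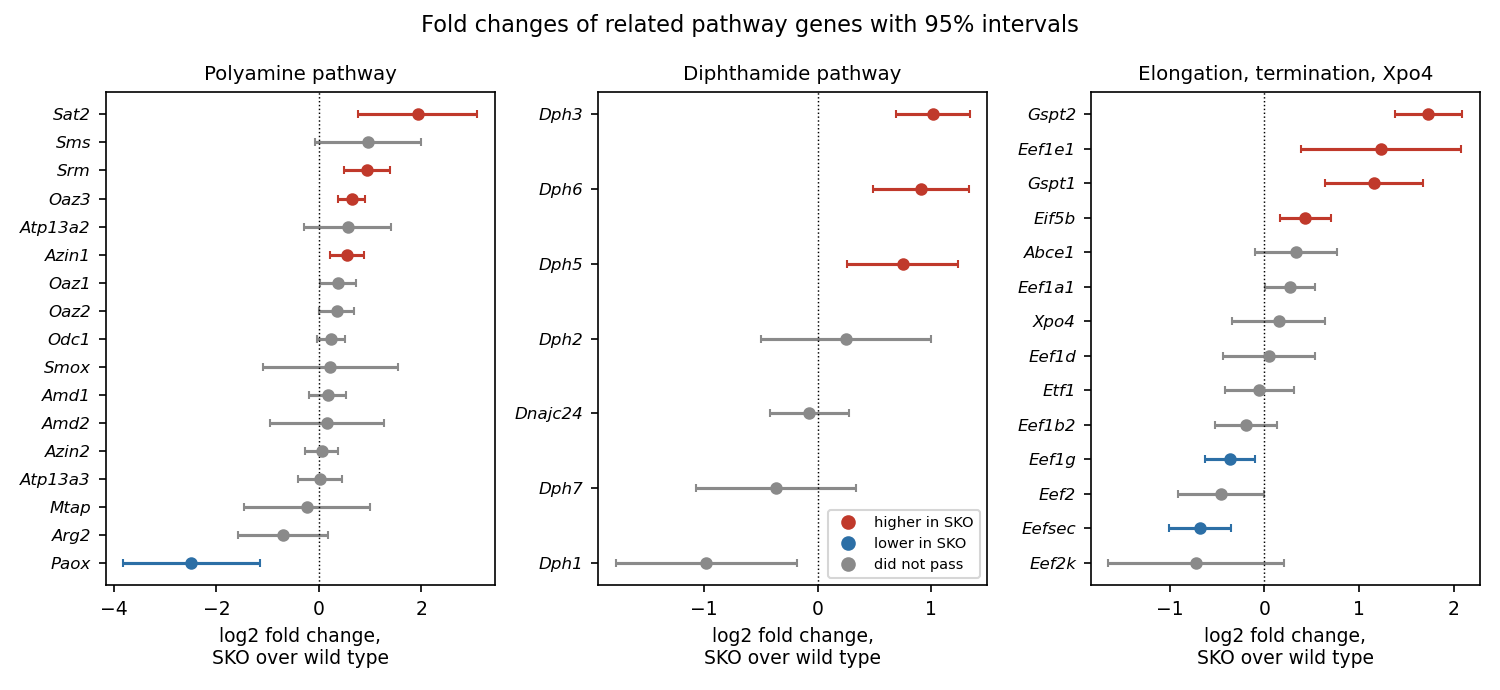
Log2 fold change, SKO over wild type, from edgeR with 95% intervals for 17 polyamine genes, 7 diphthamide genes and 14 genes listed for elongation and termination. Red marks genes called higher in SKO, blue genes called lower and grey genes that did not pass. In each panel most intervals of grey genes span 0, and Paox is the 1 blue point among the polyamine genes.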

How the data were processed

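The authors deposited raw read counts per gene, 1 column per Smart-seq2 library (full-length cDNA of polyadenylated RNA, amplified by PCR). The submitters' processing notes name HISAT2 2.0.5, Trim Galore 0.6.4, FastQC, the genome GRCm38 (mm10) and, for counting, featureCounts 1.5.0-p3 (Subread). How strand and multi-mapping reads were handled, and the annotation release, are not stated there. Each column was assigned to its sample from the genotype and number in its name. The 4 genes and all lists were chosen with earlier results of these data known.

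The counts were tested in R 4.3.3 by the quasi-likelihood method of edgeR 4.0.16, after filterByExpr (minimum count 10, minimum total 15) and TMM scaling, with p adjusted by Benjamini-Hochberg over 19776 genes; 2994 were below the filter. The paralog sum was added as 1 more row after scaling. Standard errors were derived from F and the log2 fold change, and 95% intervals use the test's total degrees of freedom. Log2 CPM for the likeness measure used a prior count of 2. Exonic lengths were those of all annotated exons of a gene merged, from GENCODE M21, in which 96.7% of the table's names matched 1 gene. Sequences were aligned with Biopython 1.88. The genes named were the 4, called members of each list, the 2 nearest tested coding genes on each side of each, overlapping genes, and the 3 of nearest pattern, of which 1 is not reported here; list members that did not pass are named as context, after their values were seen. The fit was tested on simulated counts, where it called 36% of 2-fold and 71% of 4-fold changes. Of its calls there, 3.6% were of unchanged genes. Alternatives were other scalings (DESeq2 1.42.0 size factors, upper quartile, library totals), other filters, DESeq2, limma-voom (limma 3.58.1), a loess length and GC correction, omission of each replicate, and a block for replicate number. Same-numbered libraries did not deviate together (correlations of -0.0221, -0.0511 and -0.0655), so the numbers were not taken as pairs.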

Additional observations from a re-analysis of the deposited data

How the results depend on the processing

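Eif5a and the paralog sum stayed past the threshold in the same direction in all 15 alternative fits, at log2 fold changes of -6.98 to -6.57 and -4.60 to -4.18. Eif5a2, Dhps and Dohh passed in none. The sign of Eif5a2 turned under library totals (-0.066) and the length and GC correction (-0.017). That of Dohh turned under library totals (-0.116) and without SKO replicate 3 (-0.109). Library totals moved the median over all genes tested to -0.228, from 0.012. Leaving out 1 library at a time gave 0.062 to 0.28 for Eif5a2, 0.14 to 0.39 for Dhps and -0.109 to 0.21 for Dohh. The Eif5a2 share differed by 78.0 percentage points in counts, 77.3 to 79.1 with a library left out, and 65.9 per kilobase.

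With the replicate number as a block, Eif5a stood at -6.75, Eif5a2 at 0.18, Dhps at 0.30 and Dohh at 0.093, and all genes gave 3552 higher and 3667 lower; diphthamide genes called lower became 1 and elongation genes called lower 1. Diphthamide genes called lower also became 1 with DESeq2 size factors, library totals, DESeq2 and limma-voom, and 0 to 1 with a library left out (1 without SKO replicate 1). Elongation genes called higher were 2 under library totals and at an adjusted p under 0.01, and 2 to 5 with a library left out. Those called lower were 1 under upper quartile factors, the length and GC correction and an adjusted p under 0.01, and 1 to 5 with a library left out. Polyamine genes called higher were 2 at the stricter threshold and 8 under the length and GC correction, and called lower 0 under the 5 CPM filter. All genes gave 2742 lower under that filter and 2611 higher and 2553 lower at the stricter threshold, and 3064 to 4329 higher and 3025 to 4766 lower with a library left out. The cause of these shifts was not tested. Among 22 other named genes, calls held in 283 of 326 refits and 1 sign turned: Fzr1, to 0.032 under the length and GC correction. Levels near 7 CPM rest on 308 to 473 counts per library for Dhps and Dohh.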

Other observations

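Genes beside the 4 loci were examined by position. Of the 16 nearest tested coding genes, 4 for each locus, 3 were higher, 6 lower and 7 did not pass, so 56.2% were called where the share over all genes was 42.0%. Beside Eif5a, Gps2, a subunit gene of a nuclear corepressor complex, ends 122 bases from the end of Eif5a on the opposite strand. It fell to 105.2, 102.1 and 74.9 CPM in SKO, against 223.0, 195.1 and 228.4 CPM in wild type, a log2 fold change of -1.20 ± 0.16 (SE; edgeR adjusted p = 0.000387), and the call held in all 15 alternatives. Its other near neighbours were mixed: Elp5, an Elongator subunit gene 46263 bases away, fell by 0.42 ± 0.12, a call that ended under the replicate block (edgeR adjusted p = 0.0682) and without any 1 wild-type library, while Neurl4 and Ybx2 did not pass (edgeR adjusted p = 0.475 and 0.325). Whether the change of Gps2 is tied to the altered Eif5a allele was not tested.

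Beside Eif5a2, Rpl22l1, a paralog of a ribosomal protein gene 6589 bases away, had 41.4, 42.1 and 53.2 CPM in SKO and 27.1, 25.2 and 28.7 CPM in wild type, and its call ended under the length and GC correction. Beside Dohh all 4 neighbours were called. The largest change among them was that of Nfic, a transcription factor gene, at 2.99, 2.15 and 3.07 CPM in SKO and 12.6, 9.36 and 11.4 CPM in wild type (log2 fold change -2.02 ± 0.22, edgeR adjusted p = 0.000137). Smim24, for a small membrane protein, rose by 0.50 ± 0.11, a call that ended under library totals. Fzr1, an activator of the anaphase-promoting complex, fell by 0.45 ± 0.14. Its sign turned and its call ended under the length and GC correction (edgeR adjusted p = 0.866), and the call ended under 5 others of the 15 alternatives. Dohh, which lies between them, did not pass (edgeR adjusted p = 0.685).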
